A study of Saccharomyces cerevisiae with 8 samples.

Results

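The PRM genes of budding yeast are named for pheromone-regulated membrane proteins. The 6 genes described here, PRM4, PRM5, PRM6, PRM8, PRM9 and PRM10, were taken as those without a role in cell fusion or karyogamy, the joining of the nuclei. They were found by locus name in the deposited gene table, and 6 of 6 were present, out of 6336 gene features on the array. The study used BY4741, a haploid MATa laboratory strain of Saccharomyces cerevisiae. Cultures in rich medium received 10 µM of IP-1 (Iztli peptide 1), in which an antimicrobial peptide is joined to the mating pheromone alpha-factor, or received none. RNA was taken at 3.5, 7, 15 and 30 min, from 1 treated and 1 untreated culture at each time. Treated RNA (Cy5) and untreated RNA (Cy3) of a time were hybridised together to 1 spotted array, so that 4 arrays carry the comparison. GEO lists the 2 spots of each gene as replicates, but the spots of an array share their RNA and labelling, so their mean was used. BY4741 is known as a strain with deletions of HIS3, LEU2, MET17 and URA3, which the labelled strain would give to the treated and the untreated cultures alike.

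When alpha-factor binds its receptor on an a cell, a G protein and a MAP kinase cascade activate the transcription factor Ste12, which raises the transcripts of mating genes. The PRM genes were grouped because they respond to pheromone and encode proteins with predicted membrane-spanning segments. The deposited annotation predicts 1 such segment for PRM4 and PRM5, 2 for PRM6 and PRM8, 3 for PRM9 and 5 for PRM10. It names Ste12 as a regulator of PRM4 and PRM6, Cat8, a factor of the switch to respiratory growth, as a further regulator of PRM4, and the cell integrity pathway as an inducer of PRM5. PRM8 and PRM9 belong to the DUP240 family of small membrane proteins, and both carry a motif for binding COPII, the coat of vesicles that leave the endoplasmic reticulum. The Prm6 protein acts in potassium uptake, for which the gene is also named KCH2. Prm10 has no role known well enough to state here.

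All ratios below are log2 of IP-1 over untreated, after background correction and loess scaling of each array against genes of equal brightness. The median raw intensity was 2.43 to 3.84 times the local background in Cy3 and 1.86 to 3.77 times in Cy5. Within a gene, a single spot had an SD of 0.11 to 0.14. The SD of the spot means over all tested features was 0.25, 0.22, 0.35 and 0.18 at 3.5, 7, 15 and 30 min. The 4 arrays differ in time, culture and hybridisation together, and a p-value measures only the spread between them. Of the MATa marker genes, 7 of 7 exceeded the limit set by 320 empty spots in the untreated channel of each array, but so did 4 of 4 marker genes of the opposite mating type and the 4 genes known as deleted in BY4741. Among these, LEU2 had a raw intensity of at least 239.6 times its local background in the untreated cells of each array, MET17 of 3.65 times, HIS3 of 2.70 times and URA3 of 1.75 times. The arrays thus did not bear out these deletions, and the source of the signal was not tested.

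The main comparison asked which of the 6 transcripts responded to IP-1 over the 4 exposures. PRM9 and PRM10 fell, each on 4 of 4 arrays, by 1.34-fold and 1.42-fold. PRM4 was higher on 4 of 4 arrays at 1.25-fold but missed the threshold. PRM5, PRM6 and PRM8 had means between −0.03 and 0.13 and did not pass. Thus 0 of 6 members were called higher, against 2.08% of the 6152 tested features, and 2 of 6 were called lower, against 6.83% (limma, Benjamini-Hochberg over all tested features, adjusted p under 0.05). In either direction the share of called features was 8.91%. A ratio of the same sign on 4 of 4 arrays was also common in the table, at 17.5% of tested features for higher, PRM4 and PRM6 among them, and 19.4% for lower, PRM9 and PRM10 among them. The 6 members had a median mean ratio of 0.04, beside 0.01 over all tested features. In all, 128 features were called higher and 420 lower. The split was 7 higher and 52 lower in the log ratios as deposited, without any centring. The median of all tested features was itself shifted there, to −0.23.

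**Figure D1:**
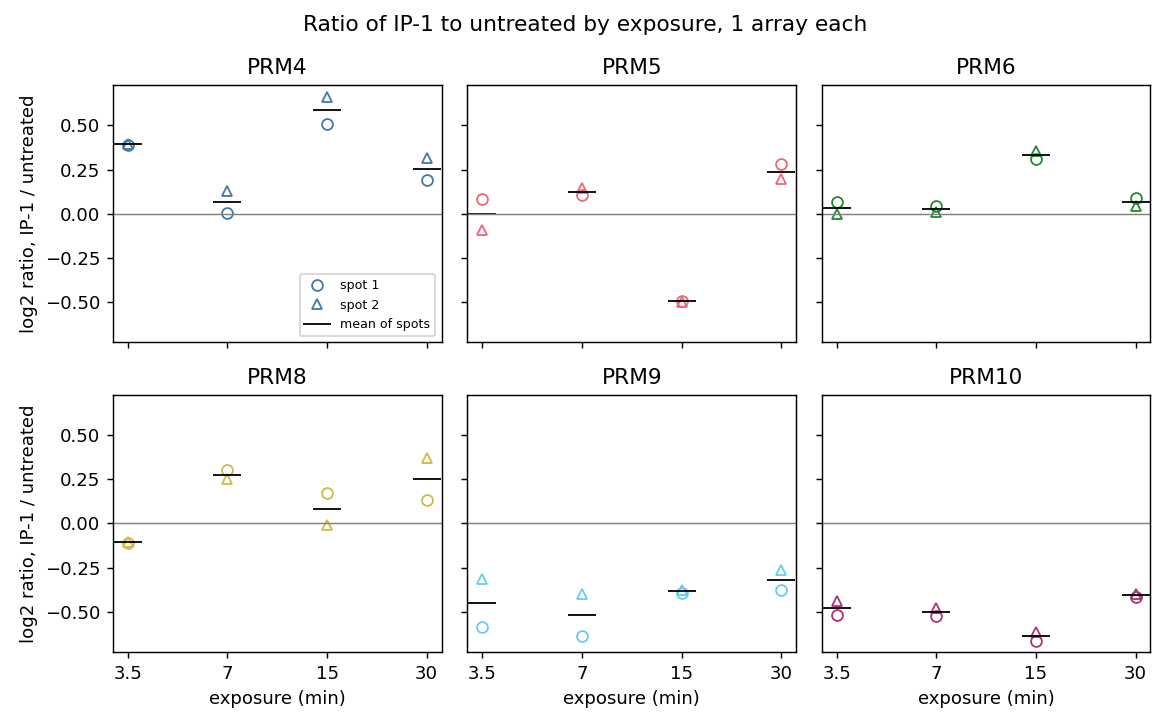
Log2 ratio of IP-1 over untreated RNA (vertical axis) for each member at 3.5, 7, 15 and 30 min (horizontal axis, evenly spaced), with 1 array per exposure. Circles and triangles are the 2 spots of a gene and the black bar is their mean. PRM9 and PRM10 lie below 0 in all spots, PRM4 lies at or above 0, and PRM5 is lowest at 15 min, at −0.50.

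PRM10 had the lowest mean of the 6 as processed here. The PRM9 mean was lower with median centring (−0.48 against −0.30) and in the deposited log ratios (−0.65 against −0.52). It was also lower with a background correction offset of 10 (−0.53 against −0.50). In the other settings tried, PRM10 stayed the lower. The intensity of PRM10 above local background in untreated cells was 11822, 7029, 2857 and 6376 scanner units at 3.5, 7, 15 and 30 min, as means of both spots. In IP-1 treated cells of the same exposures it was 7151, 4916, 2308 and 4277. The treated value was the lower of each pair, and the spots of the channels did not overlap on any array. Before scaling, Cy5 was also the dimmer channel over all genes, with a median raw log2 ratio of −0.15, −0.73, −0.04 and −0.10. The spots of PRM10 lay above that median at 7 min, at raw values of −0.54 and −0.51. The log2 ratios were −0.48, −0.50, −0.64 and −0.41, with a mean of −0.51 ± 0.10 (SD, n = 4; 95% interval −0.66 to −0.35; limma, adjusted p = 0.0079). In this scaling the fall was thus nearly even over the exposures. Between exposures that neighbour each other in the order of the ratios, only the step from 7 to 15 min, of 0.14, exceeded the gap between spots. The steps from 30 to 3.5 min and from 3.5 to 7 min lay within it. The spots at 30 min, at −0.42 and −0.40, still lay above those at 7 min, at −0.52 and −0.48. The mean was −0.30 after median centring in place of loess, where the call ended (limma, adjusted p = 0.085). The 4 ratios were then −0.49, −0.20, −0.27 and −0.26. In the deposited log ratios they were −0.71, −0.52, −0.30 and −0.56. The 15 min ratio was thus the lowest after loess and the highest as deposited, so the time pattern depended on the scaling.

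PRM9, whose product and Prm8 share the COPII-binding motif, fell by nearly as much. The untreated cells gave 202, 284, 139 and 224 scanner units above background. The treated cells gave 92.1, 125, 83.3 and 120. As for PRM10, the treated spots were dimmer than the untreated spots on each array, without overlap, before the channels were scaled to each other. The unscaled treated mean of PRM8, whose scaled mean ratio was above 0, was also the dimmer on each array. The log2 ratios were −0.45, −0.52, −0.38 and −0.32, with a mean of −0.42 ± 0.08 (SD, n = 4; 95% interval −0.57 to −0.27; limma, adjusted p = 0.0127). No step between exposures that neighbour each other in the order of the ratios exceeded the gap between spots, which reached 0.27, so the 4 exposures cannot be ordered for this gene.

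**Figure D2:**
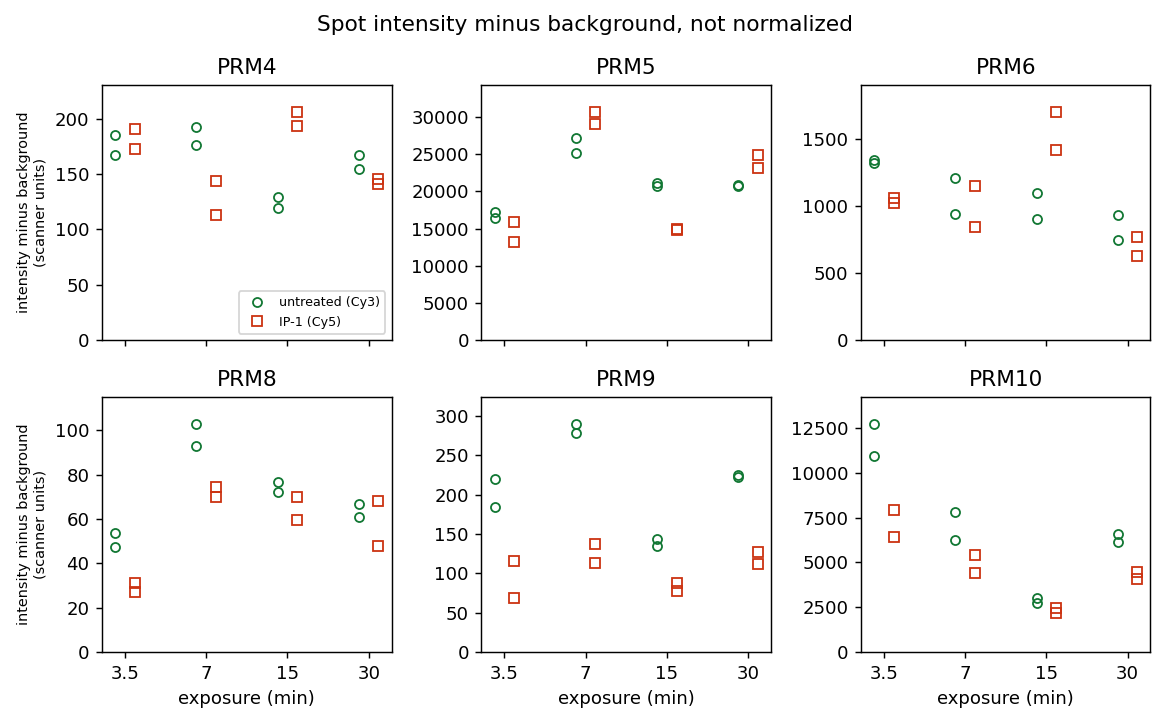
Spot intensity minus local background in scanner units (vertical axis from 0, its own scale for each gene) against exposure in minutes, for untreated RNA in Cy3 (circles) and IP-1 treated RNA in Cy5 (squares), with 2 spots per channel and array. Intensities are not normalized, so levels on different arrays cannot be set against each other. For PRM9 and PRM10 the squares lie below the circles on each of the 4 arrays. In raw intensity, without background subtraction, Cy5 was also the dimmer channel in the median over all genes on each array.

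Treated RNA carried Cy5 on every array, so a lower transcript level and a probe that takes up less Cy5 cannot be told apart for PRM9 or PRM10. The array also holds 32 features labelled Ara with a number, taken here as Arabidopsis probes without a yeast gene. Whether the labelled RNA held a target for them was not checked. Of the 32, 20 were lower on 4 of 4 arrays. In a fit together with the tested yeast features, 14 were called lower and 0 higher. The 32 entered that fit without the filter above background that the yeast features had passed. Their means ran from −0.56 to 0.04 with a median of −0.32. The PRM9 mean had 7 of the 32 at or below it, and the PRM10 mean had 2. The part of such a shift in the falls of PRM9 and PRM10 was not tested. The brightness of these 32 features was not matched to the members, of which PRM9 lay at the 44.6 percentile of gene features and PRM10 at the 95.3. The RNA is from whole cultures, so fewer cells that express a gene and less of its RNA per cell cannot be told apart either.

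Both calls ended when the 3.5 min array was left out, at a limma adjusted p of 0.089 for PRM9 and 0.075 for PRM10, and when the 7 min array was left out, at 0.098 and 0.078. The means stayed between −0.45 and −0.39 for PRM9 and between −0.54 and −0.46 for PRM10 whichever array was left out. Without the 3.5 min array 7 features were called higher and 5 lower in the whole table, and without the 7 min array 8 and 2, so the count of called members fell to 0 of 6 in tables that held few calls of any kind.

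PRM8 lies next to MST27 in the R64 annotation as PRM9 lies next to MST28, and their proteins are close relatives. In contrast to PRM9, its ratios were −0.11, 0.28, 0.08 and 0.25 at 3.5, 7, 15 and 30 min. The mean of 0.13 ± 0.18 (SD, n = 4) was not called (95% interval −0.06 to 0.31; limma, adjusted p = 0.34). PRM8 was the dimmest of the members, at 50.5, 97.7, 74.4 and 63.7 scanner units above background in untreated cells and 29.3, 72.0, 64.7 and 57.9 in treated cells. Of its 8 spots, 7 exceeded the limit of the empty spots in Cy3 and 6 in Cy5, and the spots that did not were at 3.5 min. Without background subtraction its mean was 0.05.

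PRM8 was above PRM9 on 4 of 4 arrays, by 0.34, 0.80, 0.47 and 0.57. The mean difference was 0.54 ± 0.19 (SD, n = 4; exact sign-permutation test, two-sided, p = 0.13), which is the smallest p that 4 arrays allow. Related transcripts may bind both probes, and the probe sequences were not used here. Among the other DUP240 genes, MST27 had a mean of 0.02 and MST28 of −0.08, from features that each carry both names. UIP3, whose product binds the SUMO protease Ulp1, was at 0.34, 0.22, −0.06 and 0.24, with a mean of 0.18. DFP1 (YAR023C), DFP3 (YCR007C), DFP4 (YHL044W) and KTD1 (YAR028W) had means from −0.07 to 0.09. None of these 7 was called (limma, adjusted p from 0.175 for UIP3 to 0.995 for DFP3). DFP2 (YAR029W), a further gene of the family that was added after its values were seen, had a mean of 0.15 ± 0.05 (SD, n = 4) and was not called either (limma, adjusted p = 0.16).

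PRM10 also has a neighbour and relative, YJL107C. That gene was at −0.07, 0.15, 0.06 and −0.14, with a mean of −0.0023 (limma, adjusted p = 0.99), beside the 4 negative values of PRM10. The difference between these neighbours was not tested.

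**Figure D3:**
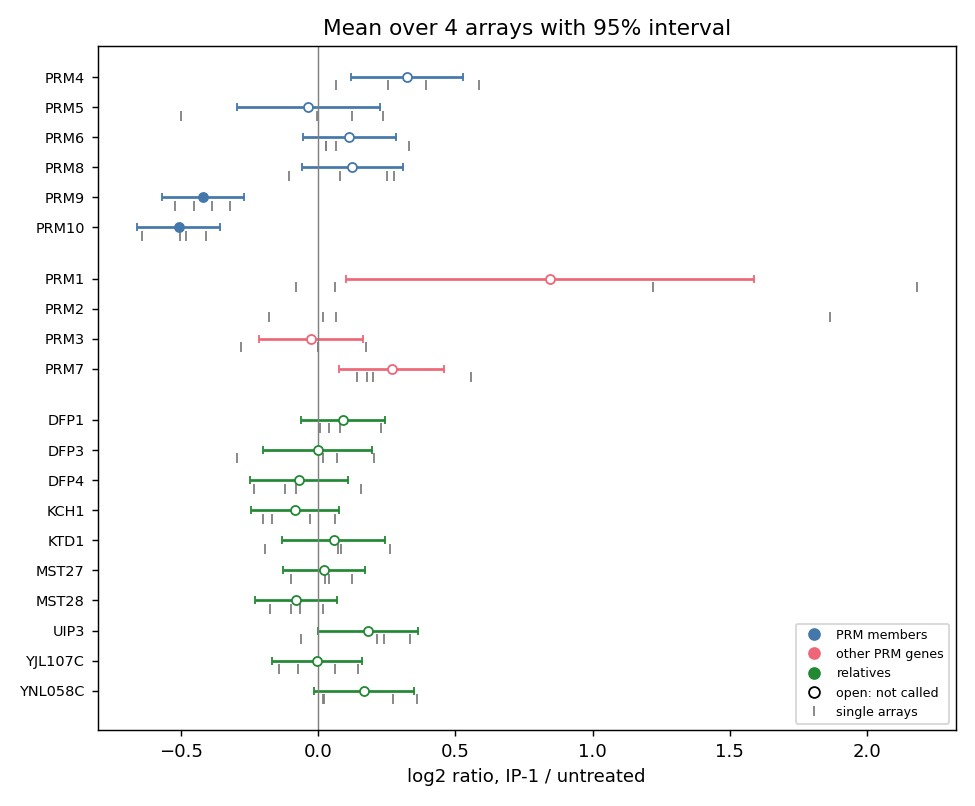
Mean log2 ratio over 4 arrays with its 95% interval from limma (circles and bars) for the 6 members, the 4 other PRM genes and 10 relatives, with the 4 single arrays as grey ticks; filled circles passed the test. Only PRM9 and PRM10 are filled, and PRM2, which was not tested, has ticks alone.

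PRM4, a target of Ste12 by the deposited annotation, was the member with the highest mean. Its untreated spots gave 176, 184, 125 and 161 scanner units above background at 3.5, 7, 15 and 30 min, and its treated spots 182, 128, 200 and 143. At 15 min both treated spots were brighter than both untreated spots, and at 7 and 30 min both were dimmer, after background subtraction and before scaling. After background correction and loess the ratios were 0.39, 0.07, 0.59 and 0.25. The direction at 7 and 30 min thus differed from that of the intensities minus local background. The raw log2 ratios of the 2 spots, without background subtraction, were −0.87 and −0.70 at 7 min but 0.03 and 0.16 at 30 min. The mean was 0.33 ± 0.22 (SD, n = 4; 95% interval 0.12 to 0.53; limma, adjusted p = 0.058, unadjusted p = 0.0061). The gene did not pass. In the deposited log ratios its mean was 0.01, beside a shift of −0.23 in the median of all tested features. Each step in the order of its ratios, 15 min highest, then 3.5, 30 and 7 min, exceeded the gap between its spots. That order was shared by 276 of 6152 tested features (4.49%) and by 7 of 28 tested genes of the pheromone response list. The order was taken from PRM4 and the list was chosen with earlier results of these data known, so these shares are no test.

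PRM4 was called in 3 alternatives. The first kept the spots apart, with the array as a block and a term for the spot number (limma, adjusted p = 0.018). It treats spots as separate measurements within an array, with a fitted correlation between them of 0.68. The others were a prior that follows brightness (limma, adjusted p = 0.032) and spot 2 alone (limma, adjusted p = 0.039).

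PRM6 takes part in the potassium influx that accompanies the calcium response to pheromone. Its ratios were 0.03, 0.03, 0.33 and 0.07 at 3.5, 7, 15 and 30 min. The 15 min value stood apart from the others by 0.26, against a gap between spots of at most 0.07 on any array, and the order of the other 3 exposures lay within that gap. The treated spots gave 1559 scanner units above background at 15 min, beside 1001 in the untreated spots, and the treated mean was the lower of the pair at the other exposures before scaling. The mean of 0.11 ± 0.15 (SD, n = 4) was not called (95% interval −0.06 to 0.28; limma, adjusted p = 0.35). In the deposited log ratios the sign turned, at a mean of −0.031.

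KCH1, the relative of PRM6 with the same role, was at −0.20, −0.17, 0.06 and −0.03, with a mean of −0.08. Among 8 tested genes of potassium and calcium transport, 1 was called higher and 0 lower, with a median of 0.09. The call was PMC1, the vacuolar calcium pump, at a mean of 0.31 ± 0.15 (SD, n = 4; limma, adjusted p = 0.040). TRK1, the main potassium transporter, was at 0.05, MID1 and CCH1, the subunits of a plasma membrane calcium channel, at 0.02 and 0.04, and FIG1, a mating-specific factor of calcium influx, at 0.24 with 0.87 at 15 min. TOK1 was not tested, since it missed the limit above background.

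PRM5, known as a target of the Slt2 kinase and its transcription factor Rlm1 in the cell wall integrity pathway, varied most between exposures. The untreated spots gave 16800, 26132, 20889 and 20788 scanner units above background. The treated spots gave 14547, 29825, 14883 and 23969. At 15 min the treated spots were clearly the dimmer, and at 7 and 30 min the brighter, without overlap between channels on any array. The log2 ratios were −0.0039, 0.12, −0.50 and 0.24, a range of 0.73, against a gap between spots of at most 0.18. The mean was −0.03 ± 0.32 (SD, n = 4; 95% interval −0.30 to 0.23; limma, adjusted p = 0.87). The sign of this mean turned without the 15 min array, to 0.12, and after median centring, to 0.15.

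YNL058C, the relative of PRM5, was at 0.36, 0.02, 0.27 and 0.02, with a mean of 0.17 that was not called (limma, adjusted p = 0.21). Of 19 tested genes of the Slt2-Rlm1 pathway and its targets, 0 were called higher and 1 lower, with a median of 0.03. The gene called was PST1, a cell wall protein, at −0.35, −0.44, −1.05 and −0.26 (mean −0.52; limma, adjusted p = 0.037). PST1 and PRM5 both had their lowest ratio at 15 min. NCW2, another wall protein, had its highest ratio there, at 1.45, with a mean of 0.67 that did not pass (limma, adjusted p = 0.055). SLT2 itself was at −0.05 and RLM1 at 0.10.

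The other PRM genes measured were PRM1, PRM2, PRM3 and PRM7. PRM1, a membrane protein of fusing cells, was at 1.22, −0.08, 2.18 and 0.06, with a mean of 0.84 ± 1.06 (SD, n = 4; limma, adjusted p = 0.14). PRM2 reached 1.87 at 15 min and lay between −0.18 and 0.07 at the other exposures, and it was not tested because it missed the limit above background. PRM3, needed for nuclear fusion, had a mean of −0.03 and PRM7 of 0.27. Of the 3 tested, 0 were called, with a median of 0.27. At 15 min the members spanned −0.64 to 0.59, a range that PRM1 and PRM2 exceeded.

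Of 28 tested genes of the wider pheromone response, 7 were called higher and 0 lower, with a median of 0.29. They were AGA1, KAR4, MFA1, SST2, FIG2, MFA2 and FUS2. AGA1, the cell wall anchor of a-agglutinin, was highest at a mean of 1.95, and FUS2, which acts in cell fusion, lowest at 0.37. Their 7 calls were higher and the 2 calls among the members lower. The list's medians at 3.5, 7, 15 and 30 min were 0.47, 0.11, 0.54 and 0.16, while those of the members were −0.06, 0.05, −0.15 and 0.15. STE12, the transcription factor, was at a mean of −0.24 and was not called (limma, adjusted p = 0.15).

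The design also orders the arrays by time. The slope of the ratio per doubling of the exposure was between 0.01 and 0.08 in the 6 members, and 0 of 6 were called, against 0% of the tested features (limma, Benjamini-Hochberg). At an unadjusted p under 0.05 there were 0 members and 61 features (0.992%). The 95% intervals of the slopes reached from −0.24 to 0.25 for PRM5, the widest, and from −0.09 to 0.19 for PRM9, the narrowest. Trends within these bounds were not excluded. With 0% of the tested features called, steeper trends may also have been missed.

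Single exposures have 1 array each and no test. Both spots past a 2-fold ratio were found in 0 of 6 members at any exposure. Past that limit the 3.5 min array had 0.309% of tested features higher and 0.0325% lower, and the 7 min array 0.0488% higher and 0.0325% lower. The 15 min array had 0.439% higher and 0.878% lower, and the 30 min array 0.0163% higher and 0% lower. With a limit of 1.5-fold, 1 member passed, PRM10 at 15 min, where 5.1% of tested features were past it in the same direction. In the deposited log ratios, which carry a median of −0.73 at 7 min, PRM9 passed the 2-fold limit at that exposure, at −1.17, as did 17% of tested features in the same direction.

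**Figure D4:**
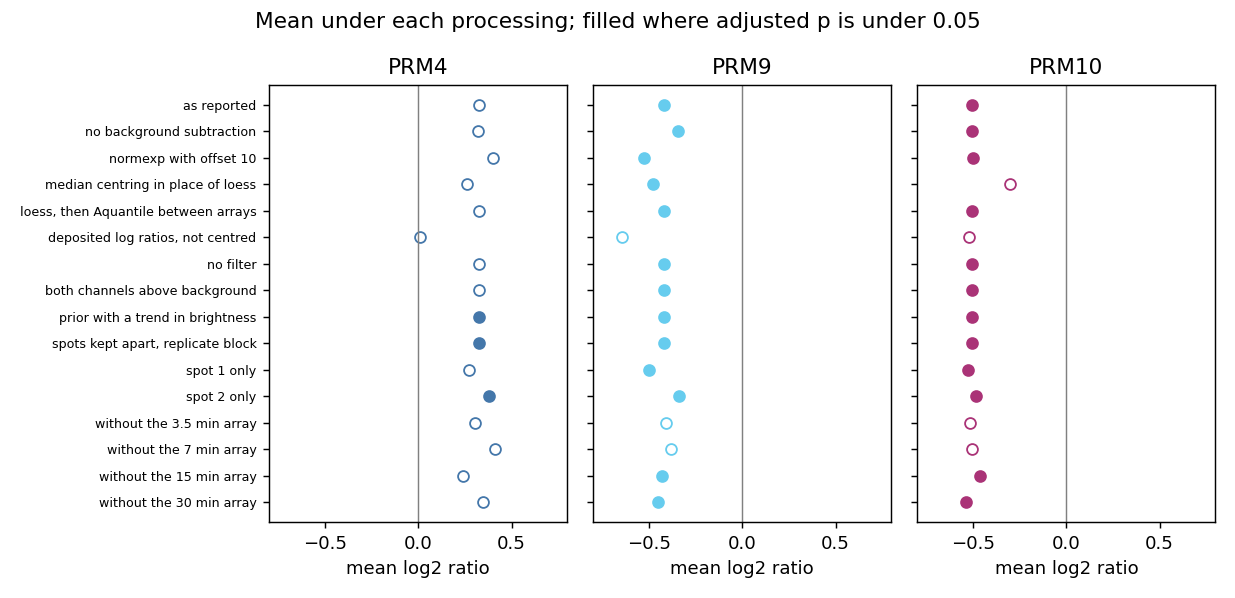
Mean log2 ratio (horizontal axis) of PRM4, PRM9 and PRM10 as reported and under each other processing (vertical axis), filled where the limma adjusted p was under 0.05. PRM9 and PRM10 stay below 0 throughout, from −0.65 to −0.34 and from −0.54 to −0.30, and PRM4 lies at 0.01 in the deposited log ratios and between 0.24 and 0.41 elsewhere.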

How the data were processed

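Per the file headers, the 4 deposited scanner tables give mean raw intensity and the mean and SD of local background intensity for each spot and channel. For the scanner and its software, the sources used here give no name. The deposited series matrix holds log10 ratios, which equal raw Cy5 over Cy3 of the scanner tables within 4.98e-07, with no centring. Background was corrected with normexp (offset 50) and each array scaled by global loess (span 0.3, 4 iterations; weight 0 for empty and Arabidopsis spots). Spots were averaged. A feature was tested if both spots exceeded background by 2 SDs in at least 1 channel on each array (6152 of 6336). The mean over 4 arrays and the slope on log2 minutes were tested with limma 3.58.1 in R 4.3.3 (lmFit, eBayes, Benjamini-Hochberg), after tests on simulated data. Figures used Python 3.11.15 and matplotlib 3.10.9.

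Symbols follow the R64 table, which held 5763 of the features and lacked 573. No build is named for the probes, so coordinates are not given. Members and lists (other PRM genes, relatives, pheromone response, Slt2-Rlm1 pathway, potassium and calcium transport, markers) were chosen with earlier results of these data known. From these lists come the called genes and up to 4 others of each, and the relatives of members. DFP2 is in none of the lists and was added after its values were seen. Also named are the 2 tested features nearest to each member by root mean square difference over the 4 arrays. The MATa marker list had 2 of 7 called higher, and the lists of MATalpha markers and of genes deleted in BY4741 had 0 of 4 called each. The replicate numbers mark spots, whose deviations correlated between arrays at −0.05 to 0.03 and which do not pair samples. The sequences of promoters and proteins were not used here.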

Additional observations from a re-analysis of the deposited data

Results flagged for a closer look

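PRM6 at 15 min, with a log2 ratio of 0.33, stood far from its 3 other exposures, which lay between 0.03 and 0.07. The gap to the nearest was 0.871 of the whole range over 4 arrays, a size that chance gives in about 1 of 20 groups of equal spread, and 6 members were looked at. With median centring the gap was 0.593 of the range, which is no longer unusual by that measure, and the 15 min array had the widest spread of ratios of the 4. PRM5 moved in opposite directions at 15 and 30 min, with both spots below 0 at the first and above 0 at the second, a difference of 0.73. The signs were the same with median centring (−0.45 and 0.52) and in the log ratios as deposited (−0.49 and 0.20). PRM8 did so at 3.5 and 7 min, with a difference of 0.38, but not under either other scaling. Its ratios there were 0.13 and 0.10 with median centring and −0.050 and −0.93 as deposited, and its spots at 3.5 min were among those below the limit of the empty spots. The differences of PRM5 and PRM8 were not tested, since each exposure has 1 array.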

How the results depend on the processing

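Of 15 alternatives, 5 leave the means as they are by construction (Aquantile scaling, both filters, the prior trend and the array block). In the other 10 the direction of PRM9 and PRM10 held, and their calls in 7 and 6. PRM9 lost its call in the deposited log ratios (−0.65, limma adjusted p = 0.082), and PRM10 there (−0.52, 0.17) and after median centring (−0.30, 0.085), so that 0 and 1 members were called lower. Leaving out 1 array gave −0.45 to −0.39 for PRM9 and −0.54 to −0.46 for PRM10, with 0 to 2 members called lower. PRM4 passed with the spots kept apart and the array as a block (0.33, limma adjusted p = 0.018). It also passed with a brightness trend in the prior (0.33, 0.032) and from spot 2 (0.38, 0.039). Each of these gave 1 member called higher. The array block changed no other call of a member. Signs of means that were not called turned for PRM5 after median centring (0.15), and for PRM6 (−0.031) and PRM8 (−0.22) in the deposited log ratios. Leaving out 1 array gave −0.13 to 0.12 for PRM5. Slopes near 0 changed sign from spot 1 for PRM4 (−0.0052) and PRM5 (−0.0055) and from spot 2 for PRM10 (−0.0014). Leaving out 1 array put slopes at −0.024 to 0.098 for PRM4, −0.24 to 0.074 for PRM5, −0.016 to 0.11 for PRM8 and −0.078 to 0.042 for PRM10. None of the members' slopes was called in any setting. Over all features, the calls higher and lower were 128 and 420 as reported and 50 and 213 without background subtraction. They were 78 and 226 with median centring and 7 and 52 in the log ratios as deposited. With the brightness trend and with the array block 212 were called higher. Without 1 array they ran from 7 to 154 higher and 2 to 421 lower, with 0 to 30 called on the slope. Features past 2-fold in both spots at any exposure were 56 higher and 15 lower with median centring, and 1073 lower in the log ratios as deposited, where 1 member passed. Without 1 array, the counts past 2-fold ran from 19 to 35 higher and 3 to 55 lower. At 1.5-fold, with all arrays, there were 184 higher and 359 lower, with 1 member. The cause of these shifts was not tested. A count of a promoter motif was not run. The 4 arrays limit each mean, and PRM8 lay closest to its background.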

Other observations

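The features nearest to each member in the pattern of their 4 ratios were found by the root mean square difference on the log2 scale. PEX29 came nearest to PRM5, at 0.016, with −0.03, 0.14, −0.51 and 0.23 at 3.5, 7, 15 and 30 min. PRM6 lay nearest to YHR020W (0.013) and YBR071W (0.023), and PRM8 to SPS2 (0.023) and FAR7 (0.033). For PRM9 they were ZRT1, the high-affinity zinc transporter (0.042), and YJL009W (0.049). CIT1, the mitochondrial citrate synthase, was nearest to PRM10 (0.037), ahead of YKL118W (0.047). PRM4 had its nearest features at POP2 (0.063) and YEF3 (0.071), and YER134C followed PEX29 for PRM5 (0.057). These are the smallest distances among 6152 features, and each rests on 4 arrays.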
